A study of Mus musculus with 38 samples.

Results

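The mammalian circadian clock is a transcriptional feedback loop, and 10 of its genes were followed here: Bhlhe40 and Bhlhe41, Per1, Per2, Cry1, Cry2, Nr1d1, Dbp, Arntl (newer name Bmal1) and Clock. They were chosen by name and matched by symbol to the Ensembl identifiers of the count tables, in which 10 of 55487 genes are these members. All 10 passed the filter on low counts in every fit.

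The series holds 38 mouse poly(A) RNA libraries, which fall into 18 groups. BV2 is an immortalised mouse microglial line, GL261 is a mouse glioma line stably carrying the pEGFP-N1 plasmid, and BMDM are macrophages grown from the bone marrow of wild-type mice; the number of mice and any pooling are not given in the sources used here. Each cell type was held for 16 h in normoxia (21% oxygen) or hypoxia (below 0.1% oxygen), alone or in direct co-culture. BV2 were added to GL261 with 2 GL261 cells per BV2 cell, and BMDM with 1 GL261 cell per BMDM. All BV2 libraries, alone, in co-culture or with DMSO or panobinostat, came from medium with 2% serum, and all BMDM libraries from medium with 10% serum. No serum level was recorded for the GL261 libraries. Differences between BV2 and BMDM therefore cannot be told apart from a difference of serum. The labels do not name the partner of the co-cultured GL261, which share a table with BV2, or how the cells were separated before RNA was made. In a further experiment BV2 and BMDM received DMSO (the vehicle) in normoxia, DMSO in hypoxia, or panobinostat at 10 nM in hypoxia; panobinostat blocks histone deacetylases. Groups had 2 libraries, except the BMDM co-cultures with 3. The protocol speaks of biological replicates but not of separate cultures or mice, so p-values measure the spread between these libraries, which may in part be technical. All libraries of a condition were taken at the single time point, and no time series was made, so levels and not rhythms were measured.

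The clock works through ARNTL and CLOCK, a pair of bHLH-PAS transcription factors that bind E-box DNA and drive Per, Cry, Nr1d1 and Dbp. PER and CRY proteins repress the ARNTL-CLOCK pair, NR1D1 (REV-ERB alpha) represses Arntl, and the nuclear receptor RORA activates it. BHLHE40 and BHLHE41 (also DEC1 and DEC2) are E-box binding repressors that act on the same sites and are long known as genes that hypoxia-inducible factor (HIF) raises. DBP is a D-box binding activator of clock output. HIF subunits belong to the same bHLH-PAS family as ARNTL and CLOCK, and HIF binds DNA with the core ACGTG, which the canonical E-box CACGTG contains.

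Since several members rose together, their RefSeq promoter windows (GRCm38.p6) are shown where CACGTG or ACGTG was found. Of the 10 members, 8 had a window, Bhlhe40 and Per2 having none, and there were 12 windows in all. The 250 bases before each start were searched on both strands for CACGTG, held by 6.02% of all 32851 windows, for ACGTG (16.6%, any match within CACGTG included), for the nuclear receptor half-site AGGTCA (14%) and for the D-box TTANGTAA (2.06%). CACGTG was found in windows of Bhlhe41, Per1 and Cry1 at positions -153, -166 and -60. ACGTG outside an E-box was found in Cry1 (-78), Cry2 (-165), Nr1d1 (-27) and Dbp (-227). AGGTCA occurred in the first Per1 window (-137) and in one Clock window (-119), and no member's window held the D-box. Neither Arntl window held any of these motifs. The stretches below are the part before the start that lies outside annotated exons, 5′ to 3′ on the gene's strand, with CACGTG and ACGTG in capitals. A match is a run of letters and not a measured binding site.
Bhlhe41, chr6:145865559-145865670, minus strand: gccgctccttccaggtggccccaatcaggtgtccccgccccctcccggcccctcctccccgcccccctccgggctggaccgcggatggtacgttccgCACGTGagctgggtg
Per1, chr11:69098699-69098947, plus strand: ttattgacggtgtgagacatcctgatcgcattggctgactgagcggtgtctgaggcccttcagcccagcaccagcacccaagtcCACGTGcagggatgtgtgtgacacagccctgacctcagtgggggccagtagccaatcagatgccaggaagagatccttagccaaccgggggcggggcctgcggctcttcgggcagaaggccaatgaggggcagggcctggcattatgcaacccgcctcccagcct
Cry1, chr10:85185065-85185304, minus strand: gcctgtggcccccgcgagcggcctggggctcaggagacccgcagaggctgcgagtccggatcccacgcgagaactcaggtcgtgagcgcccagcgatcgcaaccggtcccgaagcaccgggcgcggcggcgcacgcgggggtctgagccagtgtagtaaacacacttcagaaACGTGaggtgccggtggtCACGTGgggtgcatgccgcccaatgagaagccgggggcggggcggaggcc
Cry2, chr2:92434070-92434319, minus strand: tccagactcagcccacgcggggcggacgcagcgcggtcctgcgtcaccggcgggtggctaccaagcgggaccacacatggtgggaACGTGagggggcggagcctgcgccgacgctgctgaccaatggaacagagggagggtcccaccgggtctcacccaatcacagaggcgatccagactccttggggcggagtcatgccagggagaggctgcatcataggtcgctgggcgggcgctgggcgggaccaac
Nr1d1, chr11:98775378-98775627, minus strand: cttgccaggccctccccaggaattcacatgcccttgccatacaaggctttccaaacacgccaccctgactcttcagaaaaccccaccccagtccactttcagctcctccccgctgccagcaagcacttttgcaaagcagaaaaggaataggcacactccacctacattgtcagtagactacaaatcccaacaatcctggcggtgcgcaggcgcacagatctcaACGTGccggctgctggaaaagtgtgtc
Dbp, chr7:45704997-45705087, plus strand: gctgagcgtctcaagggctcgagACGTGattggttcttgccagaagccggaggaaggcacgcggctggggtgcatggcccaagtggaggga

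Depth was 9634700 to 27238900 counts per library to 6 significant digits, so that 3 counts, the floor used here, are 0.11 to 0.311 CPM (counts scaled to a library total of 1000000); this covers counting error only. The hypoxia label was checked on 8 genes known to rise in low oxygen: 7 or 8 of them rose in each of the BV2 and GL261 mono- and co-cultures, 7 in BMDM alone and in co-culture, 7 of 7 tested in BV2 with DMSO, and only Ndrg1 passed in BMDM with DMSO. GL261 monocultures had summed myeloid marker levels of 4.84 to 12.9 CPM, against 3079 to 5649 in BV2. Sall1, a microglial marker, had at most 3 counts per library in most BV2 groups. Median partner-specific transcripts of co-cultures stood at 0.241% to 3.6% of the partner's own level.

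Levels are given as CPM scaled within each fit by the trimmed mean of M values, and log2 fold changes come with a standard error (SE) and a Benjamini-Hochberg adjusted p from edgeR's quasi-likelihood test over all genes, called below 0.05. Of the 8 hypoxia comparisons, none shares a library with another. In BV2 monoculture 8 members rose and 1 fell, beside 61.9% of all genes called and 30.9% called higher; the members' median was 1.32 and that of all genes 0.00. BV2 in co-culture had 8 higher members (67.3% of genes called, 35.2% higher), with a median of 1.67 against 0.04. All 10 rose in GL261 alone (44.6% called, 23.2% higher; median 1.92 against -0.03) and in GL261 from co-culture (52.4% and 26.8%; 2.07 against -0.04). In BMDM 4 rose in monoculture (23.9% and 13.3%; median 0.70 against 0.03) and 5 in co-culture (34.8% and 17.5%; 0.70 against 0.03). BV2 with DMSO had 7 higher and 1 lower (37.5% and 17.2%; 1.47 against -0.03). BMDM with DMSO had none called (0.483% and 0.469%, median 0.94 against -0.01). There 5 members had an unadjusted p under 0.05, beside 3786 of 14914 genes. DESeq2 called 5 members and 2247 genes there, against 72 genes by edgeR. In BV2 the share of all genes that was called is high, so the direction and size of each member carry more than its call.

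**Figure D1:**
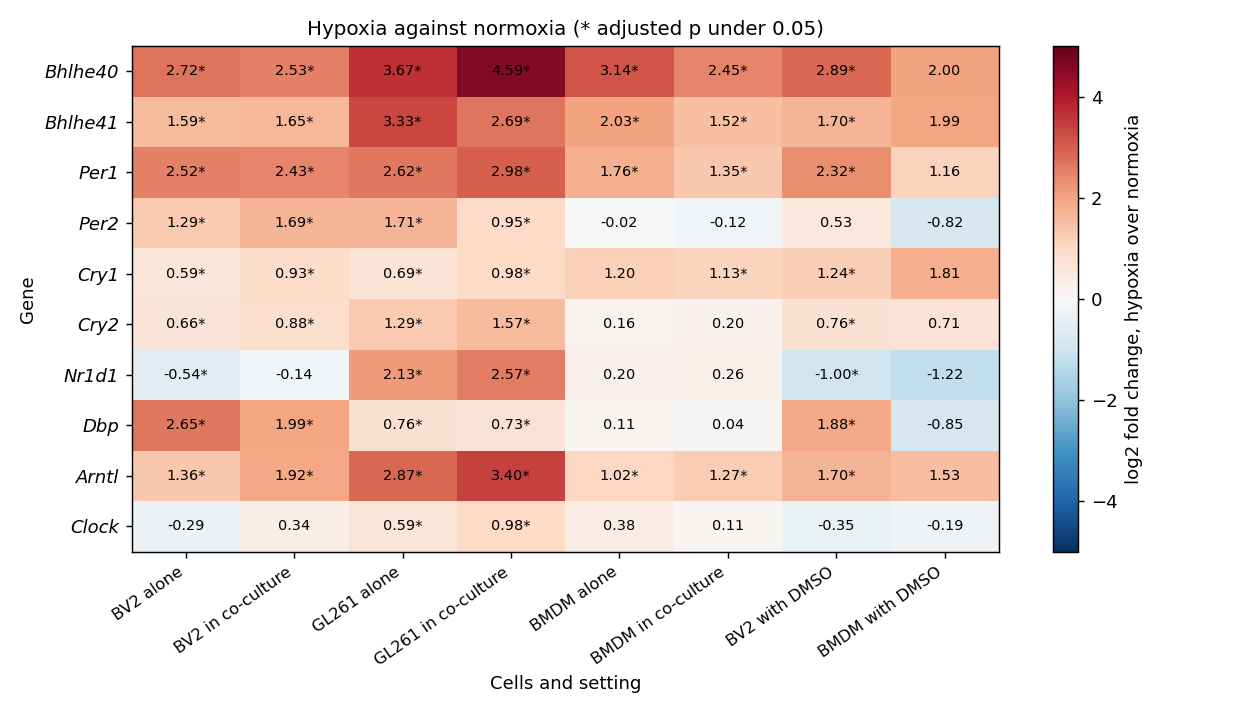
Heat map of the log2 fold change of hypoxia over normoxia, with a row for each of the 10 genes and a column for each of the 8 comparisons; red is higher, blue lower, and an asterisk marks an adjusted p under 0.05. The rows of Bhlhe40, Bhlhe41, Per1 and Arntl are red in all 8 columns, while that of Nr1d1 runs from -1.22 to 2.57.

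Bhlhe40, the repressor that competes for E-boxes, was called higher in 7 of the 8 comparisons and had values from 2.00 to 4.59. In BV2 monoculture it stood at 78.7 and 83.8 CPM in normoxia and 516 and 557 CPM in hypoxia, a 6.6-fold rise (log2 2.72, SE 0.12, adjusted p = 5.7e-11). GL261 began lower, at 10.3 and 9.75 CPM, and reached 148 and 109 CPM, a 12.8-fold rise (log2 3.67, SE 0.17, adjusted p = 3.26e-07). In BMDM the normoxic libraries had 18.2 and 21.4 CPM and the hypoxic ones 145 and 205 CPM, 8.83-fold more (log2 3.14, SE 0.25, adjusted p = 2.37e-05). The hypoxic libraries lay above the normoxic ones without overlap in each cell type. Normoxic BV2 already had more Bhlhe40 than either of the other cell types, and the gene's order over the 18 groups, whose tables were scaled separately, ran from 10 CPM in normoxic GL261 to 584 CPM in hypoxic BV2 with DMSO. The 3 normoxic BV2 groups were neighbours in that order with overlapping libraries, as were hypoxic GL261 alone and the 4 hypoxic BMDM groups.

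Its paralogue Bhlhe41, a repressor with the same DNA site, rose in 7 of 8 comparisons as well. BV2 monoculture had 147 and 152 CPM in normoxia and 441 and 459 CPM in hypoxia (log2 1.59, SE 0.11, adjusted p = 5.27e-09), and BMDM 37.9 and 56.3 CPM against 183 and 202 CPM (log2 2.03, SE 0.21, adjusted p = 0.000138). GL261 had 1.43 and 0.48 CPM in normoxia and 10.6 and 8.93 CPM in hypoxia, so this line carried little Bhlhe41 RNA even in hypoxia. That was a 10.1-fold rise (log2 3.33, SE 0.36, adjusted p = 4.12e-05), with a log2 value of 4.33 without normoxic replicate 1. Per kilobase of exon, hypoxic BV2 had 114 CPM of Bhlhe40 and 67 of Bhlhe41, whereas hypoxic GL261 had 27.2 and 1.45. Both genes have exon bases shared with an opposite-strand gene, 118 for Bhlhe40 and 1280 for Bhlhe41 (19% of its exon bases), and whether the authors' counting used strand is not given in the sources used here.

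**Figure D2:**
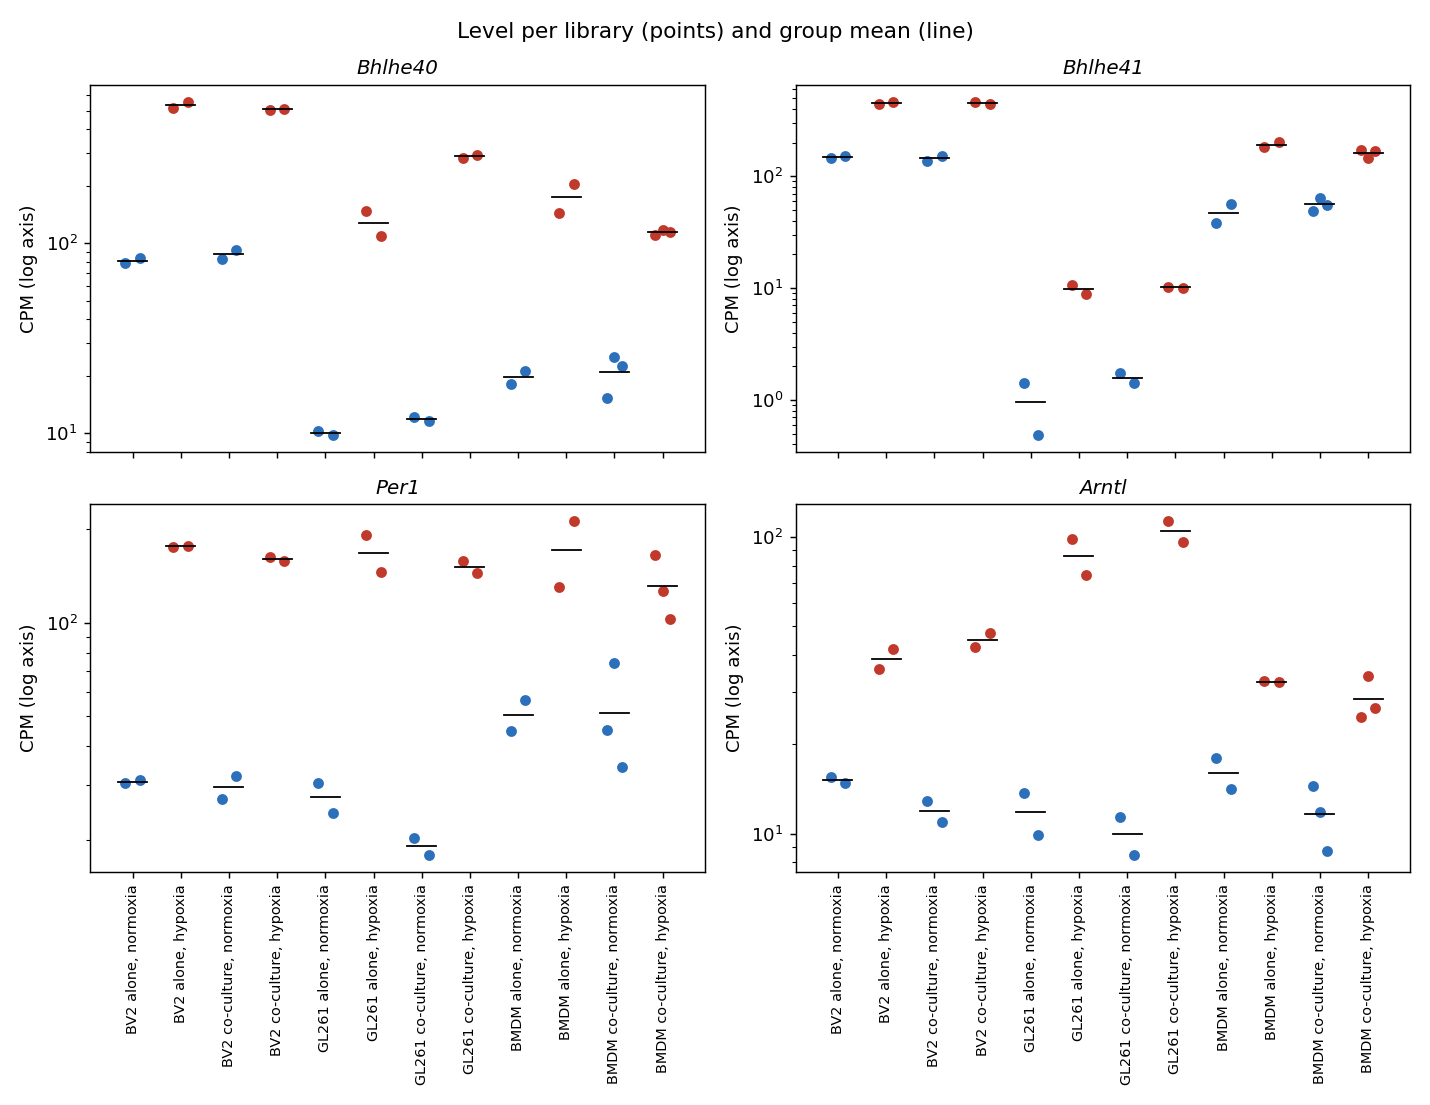
CPM of Bhlhe40, Bhlhe41, Per1 and Arntl on a log axis in every library of the mono- and co-cultures, by group. Normoxic libraries are blue, hypoxic ones red, and a line marks the group mean. The DMSO and panobinostat libraries are not drawn. Hypoxic libraries lie above normoxic ones of the same cell type and culture, for Bhlhe40 from 10.3 and 9.75 to 148 and 109 CPM in GL261 monoculture.

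Per1, a PER repressor that responds quickly to many stimuli, was called higher in 7 of 8 comparisons. Its normoxic level in BV2 was 30.4 and 31.1 CPM and its hypoxic level 175 and 177 CPM (log2 2.52, SE 0.12, adjusted p = 1e-10). GL261 went from 30.4 and 24.4 CPM to 191 and 145 CPM (log2 2.62, SE 0.17, adjusted p = 1.89e-06). In a joint fit of both lines, which was scaled anew, the difference between the rises was 0.00 on the log2 scale (95% interval -0.42 to 0.42). BMDM had 44.7 and 56.3 CPM in normoxia and 130 and 212 CPM in hypoxia (log2 1.76, SE 0.36, adjusted p = 0.00608). That call was lost without hypoxic replicate 2 (1.36, adjusted p = 0.0595) or normoxic replicate 1 (1.54, adjusted p = 0.0688).

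Per2, the partner repressor in the core loop, was scarce and less uniform. BV2 monoculture had 2.38 and 3.12 CPM in normoxia and 5.01 and 8.34 CPM in hypoxia (log2 1.29, SE 0.27, adjusted p = 0.000616), and GL261 3.12 and 2.67 CPM against 9.61 and 9.3 CPM (log2 1.71, SE 0.26, adjusted p = 0.000378). In co-cultured GL261 the rise of 0.95 (SE 0.27, adjusted p = 0.0113) was not called without hypoxic co-culture replicate 1 (0.88, adjusted p = 0.0521) or normoxic co-culture replicate 2 (0.62, adjusted p = 0.128). BMDM libraries overlapped, with 7 and 13.8 CPM in normoxia and 6.47 and 13.9 CPM in hypoxia (log2 -0.02, SE 0.46, adjusted p = 0.987). With DMSO, BV2 had a Per2 change of 0.53 (SE 0.26, adjusted p = 0.14).

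Cry1 and Cry2 encode the cryptochrome repressors. In BV2 monoculture Cry1 went from 40.7 and 44 CPM to 61.2 and 66.1 CPM (log2 0.59, SE 0.12, adjusted p = 0.000516) and Cry2 from 10.4 and 11.1 CPM to 15.6 and 18.3 CPM (log2 0.66, SE 0.16, adjusted p = 0.00157). GL261 raised Cry2 from 20 and 20.8 CPM to 47.3 and 52.9 CPM, 2.45-fold (log2 1.29, SE 0.13, adjusted p = 2.8e-05). Its Cry1 rise of 0.69 (SE 0.17, adjusted p = 0.00651) was lost without normoxic replicate 1 (0.54, adjusted p = 0.0636). In BMDM, Cry1 was 6.18 and 9.12 CPM in normoxia and 14.4 and 20.8 CPM in hypoxia, a change of 1.20 (SE 0.41, adjusted p = 0.0564) that DESeq2 called (adjusted p = 0.0248). In BMDM co-culture Cry1 passed with 1.13 (SE 0.34, adjusted p = 0.0238), a call lost without hypoxic replicate 2 (0.61, adjusted p = 0.1), normoxic replicate 1 (1.02, adjusted p = 0.0862) or normoxic replicate 3 (1.07, adjusted p = 0.0714). Cry2 in BMDM changed by 0.16 (SE 0.32, adjusted p = 0.769) with overlapping libraries. In BV2 with DMSO, Cry2 rose by 0.76 (SE 0.21, adjusted p = 0.017), not called without hypoxic DMSO replicate 1 (0.71, adjusted p = 0.0878).

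Nr1d1, which encodes the REV-ERB alpha repressor of Arntl, went opposite ways in monocultures of the lines. In GL261 it rose from 88.8 and 35.9 CPM to 332 and 215 CPM (log2 2.13, SE 0.38, adjusted p = 0.00108), and the change was 2.93 without normoxic replicate 1, the higher of that pair. In BV2 it fell from 8.75 and 10.1 CPM to 6.19 and 6.75 CPM (log2 -0.54, SE 0.18, adjusted p = 0.0167), a call lost without hypoxic replicate 1 (-0.46, adjusted p = 0.107) or normoxic replicate 2 (-0.43, adjusted p = 0.116). BV2 with DMSO had 9.52 and 13.4 CPM in normoxia and 5.03 and 6.42 CPM in hypoxia. That fall, to 0.501 of the normoxic level (adjusted p = 0.036), was lost without hypoxic DMSO replicate 1 (-0.83, adjusted p = 0.17) or normoxic DMSO replicate 2 (-0.71, adjusted p = 0.181). In BV2 co-culture the libraries overlapped, with 9.12 and 11.8 CPM in normoxia and 10 and 9.09 CPM in hypoxia (log2 -0.14, SE 0.18, adjusted p = 0.5; 0.07 without normoxic co-culture replicate 2). In GL261 co-culture Nr1d1 rose by 2.57 (SE 0.40, adjusted p = 0.000264), from 32.5 and 22.7 CPM to 207 and 121 CPM. BMDM monoculture held 25 and 25 CPM in normoxia and 22.8 and 34.7 CPM in hypoxia (log2 0.20, SE 0.22, adjusted p = 0.551). BMDM with DMSO had 41.4 and 23.9 CPM in normoxia and 7.92 and 20.3 CPM in hypoxia, without overlap but not called (log2 -1.22, SE 0.54, adjusted p = 0.223; called without the filter on low counts, adjusted p = 0.0193). Hypoxic GL261 alone had the highest Nr1d1 of the 18 groups, 273 CPM, and hypoxic BV2 with panobinostat the lowest, 4.03 CPM. Nr1d1 shares 263 exon bases with Thra on the opposite strand, and Thra rose in BV2 monoculture by 1.07 (SE 0.19, adjusted p = 0.000109) while Nr1d1 fell. In GL261, where Nr1d1 rose, Thra rose too, by 0.41 alone (SE 0.15, adjusted p = 0.0441) and 0.44 in co-culture (SE 0.15, adjusted p = 0.0289). How far the shared bases shaped the Nr1d1 values was not tested.

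Dbp, the D-box activator often used as a readout of ARNTL-CLOCK activity, rose most in BV2. It went there from 7.86 and 6.55 CPM to 42.6 and 47.6 CPM, 6.26-fold (log2 2.65, SE 0.22, adjusted p = 3.83e-08). GL261 started at 50.1 and 42.4 CPM and reached 67.4 and 88.9 CPM, 1.69-fold (log2 0.76, SE 0.16, adjusted p = 0.00334). BMDM libraries overlapped, at 36.5 and 41.2 CPM against 35.9 and 47.9 CPM (log2 0.11, SE 0.25, adjusted p = 0.799). Normoxic BV2 had the lowest Dbp of the 3 monocultures, and its hypoxic libraries overlapped with those of BMDM, in tables that were scaled separately. Dbp shares 539 exon bases (18%) with Sphk2 on the opposite strand, which rose in BV2 by 0.58 (SE 0.11, adjusted p = 0.0003).

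**Figure D3:**
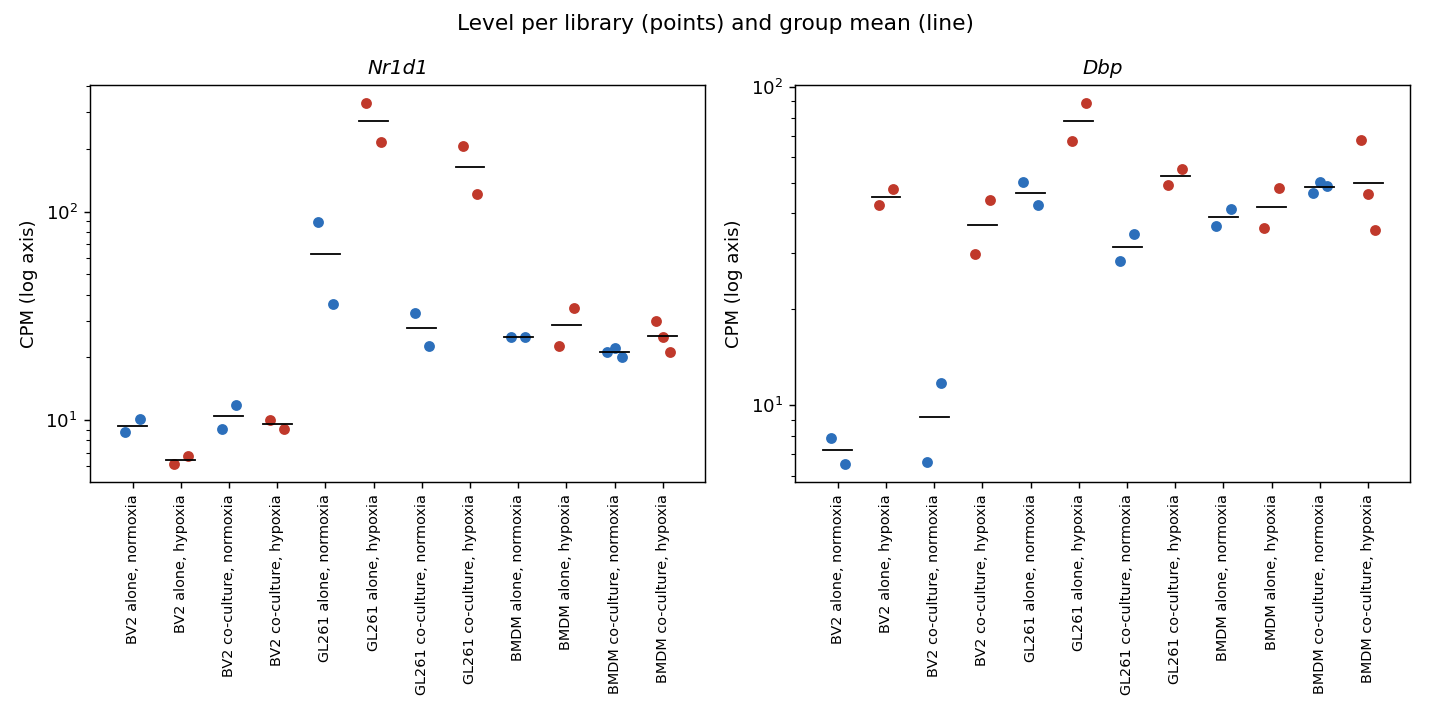
CPM of Nr1d1 and Dbp on a log axis in every library of the mono- and co-cultures, by group, with lines at group means. Colours are as in the plot of rising genes (blue normoxia, red hypoxia). The DMSO and panobinostat libraries are not drawn. Nr1d1 lies at 332 and 215 CPM in hypoxic GL261 alone and at 6.19 and 6.75 CPM in hypoxic BV2 alone; Dbp rose from 7.86 and 6.55 CPM to 42.6 and 47.6 CPM in BV2 monoculture.

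Arntl, an activator of the core pair, rose in 7 of 8 comparisons. GL261 went from 13.7 and 9.91 CPM to 98.7 and 74.2 CPM, 7.32-fold (log2 2.87, SE 0.21, adjusted p = 3.84e-06), and Nr1d1, whose product represses Arntl, rose in the same libraries. BV2 had 15.5 and 14.8 CPM in normoxia and 35.9 and 41.9 CPM in hypoxia (log2 1.36, SE 0.13, adjusted p = 2.51e-07). BMDM had 18 and 14.1 CPM against 32.6 and 32.5 CPM (log2 1.02, SE 0.24, adjusted p = 0.0124), a call lost when any of these 4 libraries was left out (0.79 to 1.14, adjusted p 0.0549 to 0.137); in BMDM co-culture Arntl rose by 1.27 (SE 0.20, adjusted p = 0.00081). Clock, its partner, was called higher in both GL261 comparisons and in none of the other 6. It went from 55.9 and 67 CPM to 94.5 and 90.5 CPM in monoculture (log2 0.59, SE 0.15, adjusted p = 0.00932). That call was lost without normoxic replicate 1 (0.47, adjusted p = 0.0812), and in GL261 co-culture the rise was 0.98 (SE 0.16, adjusted p = 0.000311). In BV2 monoculture the Clock libraries overlapped, 29.6 and 39.5 CPM against 24.9 and 31.4 CPM (log2 -0.29, SE 0.15, adjusted p = 0.106). Without normoxic replicate 1 this became a called fall of -0.49 (adjusted p = 0.0209). In BV2 co-culture the value had the other sign, with 30.6 and 28.3 CPM in normoxia and 39.4 and 34.9 CPM in hypoxia (log2 0.34, SE 0.15, adjusted p = 0.0627). The difference between these effects was not called (0.63, SE 0.22, adjusted p = 0.122). Hypoxic GL261 co-culture had the highest level of both Arntl and Clock over the 18 groups, 105 CPM for Arntl and 113 CPM for Clock.

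The remaining hypoxia effects of co-cultures and DMSO cultures, on the log2 scale, were as follows. In BV2 co-culture Bhlhe40 rose by 2.53 (SE 0.12, adjusted p = 1.08e-10), Bhlhe41 by 1.65, Per1 by 2.43, Per2 by 1.69, Cry1 by 0.93, Cry2 by 0.88, Dbp by 1.99 and Arntl by 1.92. In GL261 co-culture Bhlhe40 rose by 4.59 (SE 0.18, adjusted p = 7.6e-08), Bhlhe41 by 2.69, Per1 by 2.98, Cry1 by 0.98, Cry2 by 1.57, Dbp by 0.73 and Arntl by 3.40. With BV2 as partner, its RNA at the measured share would amount to 73.4% of the Bhlhe41 level in normoxic co-cultured GL261. That is 1.16 of 1.59 CPM without the trimmed-mean scaling, and in hypoxia it would be 10.8%. How far this shaped the value of 2.69 was not tested. In BMDM co-culture Bhlhe40 rose by 2.45 (SE 0.20, adjusted p = 1.74e-05), Bhlhe41 by 1.52 and Per1 by 1.35, while Per2, Cry2, Nr1d1, Dbp and Clock were not called (-0.12, 0.20, 0.26, 0.04 and 0.11) and had overlapping libraries. GL261 RNA at the measured share would amount to 39.7% of Nr1d1 in hypoxic co-cultured BMDM and 6.9% in normoxic ones. For Clock the values were 16.5% and 7.62%, and for Cry2 11.8% and 3.5%. These figures rest on mean shares of 3.6% in hypoxia (1.66% to 5.94% over 3 libraries) and 2.4% in normoxia (1.34% to 3.71%), so they are rough. They also take the level of GL261 grown alone, from another table. For Nr1d1 in hypoxia that was 271 CPM without the trimmed-mean scaling, against 157 CPM in co-cultured GL261. Changes in the macrophages' own RNA of these genes were not separated from partner RNA. BV2 with DMSO gave 2.89 for Bhlhe40 (SE 0.23, adjusted p = 7.53e-05), 1.70 for Bhlhe41, 2.32 for Per1, 1.24 for Cry1, 1.88 for Dbp and 1.70 for Arntl, all called, and -0.35 for Clock (SE 0.21, adjusted p = 0.222).

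The difference between the hypoxia effects of BV2 and GL261 was tested as an interaction, in which 37.4% of all genes were called and the median of all genes was 0.15. It came from a joint fit of both lines with its own scaling. The values therefore need not equal the differences of the effects given above for each line. Of the 10 members 7 differed. The effect was smaller in BV2 for Bhlhe40 (-0.85, SE 0.20, adjusted p = 0.00198), Bhlhe41 (-1.64, SE 0.31, adjusted p = 0.000319), Arntl (-1.41, SE 0.25, adjusted p = 0.00024) and Nr1d1 (-2.57, SE 0.49, adjusted p = 0.00038). Without normoxic GL261 replicate 1 the Bhlhe41 difference was -2.70 and the Nr1d1 difference -3.43. Dbp was the member with the larger rise in BV2 (1.99, SE 0.31, adjusted p = 4.88e-05). Clock differed by -0.78 (SE 0.23, adjusted p = 0.0128), not called without hypoxic BV2 replicate 1 (-0.60, adjusted p = 0.0843) or normoxic BV2 replicate 2 (-0.63, adjusted p = 0.0643). The Cry2 difference of -0.54 (SE 0.20, adjusted p = 0.0418) was lost with DESeq2 (adjusted p = 0.0565), with its size factors (adjusted p = 0.0549) and without the filter (adjusted p = 0.0777). It was also lost without hypoxic BV2 replicate 1, either normoxic BV2 replicate, hypoxic GL261 replicate 2 or normoxic GL261 replicate 1 (-0.40 to -0.59, adjusted p 0.0554 to 0.189). Per1, Per2 and Cry1 were not called, with differences of 0.00, -0.32 (SE 0.41, adjusted p = 0.611) and -0.00.

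**Figure D4:**
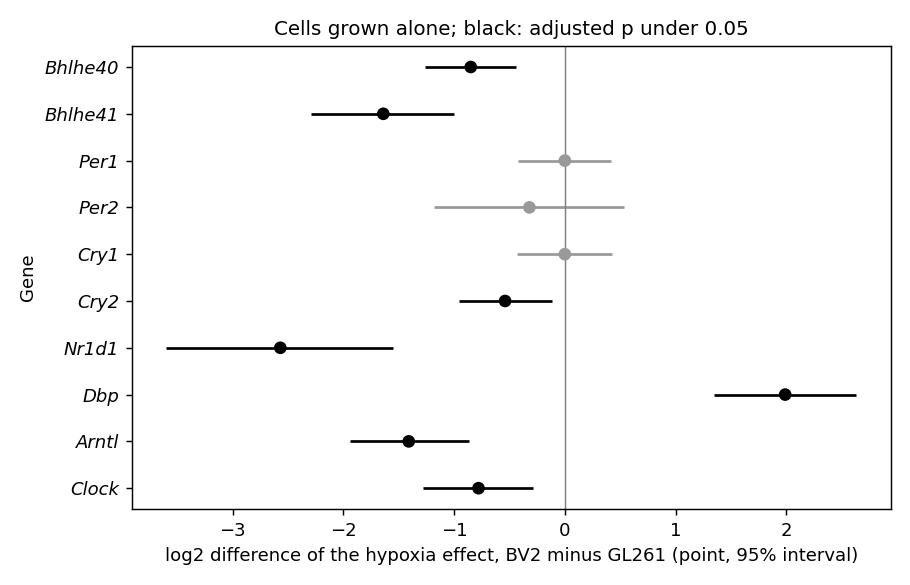
Hypoxia effect in BV2 minus that in GL261, both in monoculture, on the log2 scale with 95% intervals for the 10 genes; black marks an adjusted p under 0.05 and grey the rest. Dbp stands at 1.99 to the right of 0, Nr1d1 at -2.57 and Bhlhe41 at -1.64 to the left, and Per1 and Cry1 at 0.00.

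Co-culture gave few calls among the members. In BV2 none was called in normoxia (14.9% of all genes called) or in hypoxia (15.7%), and none in the test of whether co-culture altered the hypoxia effect (2.19%). The nearest was Nr1d1 in hypoxic BV2, with 10 and 9.09 CPM in co-culture against 6.19 and 6.75 CPM alone (log2 0.56, SE 0.19, adjusted p = 0.0509). With the replicate number as a block it was called (0.57, adjusted p = 0.0405). Hypoxic GL261 grown alone had 271 CPM of Nr1d1 in plain CPM. At the partner share of 2.2% such RNA would amount to 5.97 of the 9.26 CPM, or 64.5%. Co-cultured hypoxic GL261 had less, 157 plain CPM, which would give a smaller part. Hypoxic BV2 alone had 6.31 plain CPM, and this level with the 5.97 CPM exceeds the 9.26 CPM measured, so the estimate is rough. In GL261, co-culture gave no call in normoxia (0.514%), where Nr1d1 had 32.5 and 22.7 CPM against 88.8 and 35.9 CPM alone (log2 -1.18, SE 0.39, adjusted p = 0.369). Without the filter on low counts that Nr1d1 difference was called (-1.19, adjusted p = 1.25e-09), as it was with the replicate block (-1.08, adjusted p = 0.00776). In hypoxia Bhlhe40 was the single member called (1.39% of all genes). Of the 8 genes used to check the hypoxia label, 3 were called higher in the same contrast, with a median of 0.64 against -0.00 for all genes. Of these 8, 7 had an unadjusted p under 0.05, beside 2282 of 15189 genes. A common cause of these rises and that of Bhlhe40 was not tested. Nr1d1 (-0.74, SE 0.37, adjusted p = 0.375) and Dbp (-0.58, SE 0.16, adjusted p = 0.126) were called there without the filter (adjusted p = 0.000267 and 0.0159), and Dbp also without hypoxic monoculture replicate 1 (-0.77, adjusted p = 0.0435). The replicate block also called Nr1d1 (-0.76, adjusted p = 0.0215) and Dbp (-0.57, adjusted p = 0.0472) in hypoxia. In normoxia Dbp had -0.56 (SE 0.17, adjusted p = 0.278). The Bhlhe40 level was 281 and 293 CPM in co-cultured and 148 and 109 CPM in lone hypoxic GL261, 2.24-fold more (log2 1.16, SE 0.15, adjusted p = 0.00397). BV2 RNA at the measured share of 0.241% would add 1.26 of 275 plain CPM, or 0.457%, and summed myeloid markers were 9.11 to 15 CPM in those co-cultures. In normoxia, by contrast, the Bhlhe40 libraries had 12.2 and 11.6 CPM in co-culture and 10.3 and 9.75 CPM alone (log2 0.24, SE 0.17, adjusted p = 0.74). The interaction was not called (0.92, SE 0.23, adjusted p = 0.374), in a test that called 0% of all genes with edgeR, 1354 genes at an unadjusted p under 0.05 and 48 with DESeq2. BMDM had no member called for co-culture in normoxia (1.64%), in hypoxia (7.11%) or in the interaction (0%, with 636 genes at an unadjusted p under 0.05 and 9 with DESeq2). Bhlhe40 stood lower in hypoxic BMDM co-cultures, at 110, 118 and 115 CPM against 145 and 205 CPM alone, without passing the test (log2 -0.61, SE 0.21, adjusted p = 0.0988). This Bhlhe40 difference was called without the filter (adjusted p = 0.0235) and with the replicate block (-0.62, adjusted p = 0.049). The mono- and co-culture contrasts share their monoculture libraries with the hypoxia contrasts above.

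Hypoxia with DMSO in BMDM gave values of the same sign as in the other BMDM cultures for the members that rose there, with wider error. Bhlhe40 had 37.1 and 44.2 CPM in normoxia and 145 and 181 CPM in hypoxia (log2 2.00, SE 0.31, adjusted p = 0.0639). Cry1 had 12.3 and 9.63 CPM against 38.6 and 38.2 CPM (log2 1.81, SE 0.28, adjusted p = 0.0639), and Bhlhe41 a change of 1.99 (SE 0.37, adjusted p = 0.0729). Arntl changed by 1.53 (SE 0.33, adjusted p = 0.0808) and Per1 by 1.16 (SE 0.33, adjusted p = 0.112). The libraries did not overlap for these 5 genes. With the replicate number as a block, 4 of them were called, Bhlhe40 (2.00, adjusted p = 0.0227), Bhlhe41 (2.00, adjusted p = 0.0284), Cry1 (1.82, adjusted p = 0.0181) and Arntl (1.54, adjusted p = 0.0306), beside 2127 of all genes. Cry2, Per2, Dbp and Clock had 0.71, -0.82, -0.85 and -0.19 (adjusted p 0.211 to 0.596). Summed myeloid markers of these BMDM were 19801 to 28361 CPM in normoxia, 3539 to 11747 CPM in hypoxia and 1217 to 5680 CPM with panobinostat, with all 11 markers detected; their part in these results was not tested. Between BV2 and BMDM with DMSO, the hypoxia effect differed for Dbp alone among the members (2.81, SE 0.49, adjusted p = 0.0433, 0.664% of all genes called). BV2 had 6.4 and 12 CPM in normoxia and 35.7 and 32 CPM in hypoxia, BMDM 24.3 and 18.2 CPM and then 9.91 and 13.6 CPM. BV2 and BMDM also differed in serum, so an effect of cell type cannot be told apart from that of serum here. The Dbp call was lost when any of 6 of the 8 libraries was left out, with 2.45 to 3.31 and adjusted p 0.0848 to 0.186: hypoxic BMDM replicate 1, normoxic BMDM replicate 1 and each BV2 library. Without hypoxic BMDM replicate 2 Per2 was also called (2.43, adjusted p = 0.0208), against 1.43 (SE 0.64, adjusted p = 0.266) with all libraries. DESeq2 also called the Per1 difference (1.25, adjusted p = 0.0474), which edgeR did not (1.22, adjusted p = 0.129).

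Panobinostat in hypoxic BV2 raised Per2 and Cry2, with 14.6% of all genes called. Per2 went from 5.18 and 5.37 CPM with DMSO to 30.7 and 31.8 CPM, 5.92-fold (log2 2.56, SE 0.25, adjusted p = 0.00112). That was the highest Per2 level of the 18 groups, and it came in a line in which hypoxia with DMSO had not passed for Per2. Cry2 went from 23.7 and 22 CPM to 43.2 and 42 CPM (log2 0.90, SE 0.20, adjusted p = 0.0195), a call lost when any of the 4 libraries was left out (0.84 to 0.95, adjusted p 0.0559 to 0.161). Bhlhe41 had 585 and 466 CPM with DMSO and 355 and 337 CPM with panobinostat (log2 -0.60, SE 0.21, adjusted p = 0.0844), which DESeq2 (adjusted p = 0.0362) and the fit with the replicate block (-0.60, adjusted p = 0.0329) called. The block raised the number of genes called from 1941 to 4025. Bhlhe40 was 646 and 521 CPM against 476 and 426 CPM (log2 -0.37, SE 0.22, adjusted p = 0.273), and Per1 213 and 177 CPM against 193 and 220 CPM with overlapping libraries. The hypoxic DMSO libraries serve in this contrast and in the hypoxia contrast.

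In hypoxic BMDM no member was called for panobinostat, and 0 members had an unadjusted p under 0.05. The edgeR test called 0% of all genes there, although 3868 had an unadjusted p under 0.05, DESeq2 called 2221 and the fit with the replicate block 2044. With the block, too, 0 members were called. Per2 had 4.56 and 14.4 CPM with DMSO and 17.7 and 13.2 CPM with panobinostat (log2 0.72, SE 0.57, adjusted p = 0.465), and Cry2 25.3 and 41.1 CPM against 64.3 and 46.7 CPM (log2 0.74, SE 0.33, adjusted p = 0.223). The panobinostat effect on Per2 was not shown to differ between BV2 and BMDM (1.82, SE 0.63, adjusted p = 0.341), in a test that called 0.0251% of all genes.

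**Figure D5:**
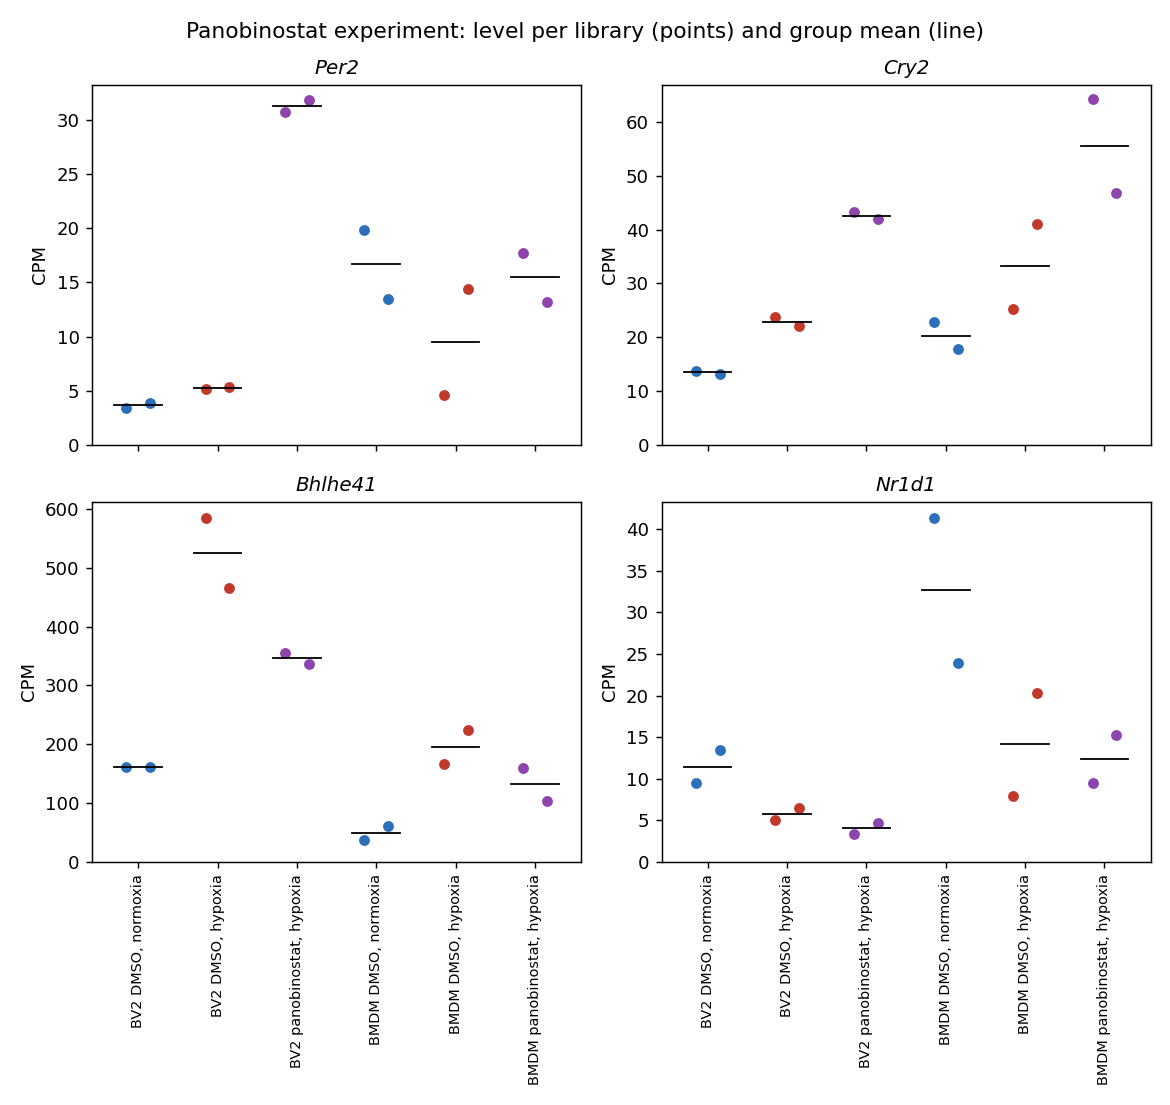
CPM in every library (points, with lines at group means) of Per2, Cry2, Bhlhe41 and Nr1d1 in BV2 and BMDM with DMSO in normoxia, DMSO in hypoxia and panobinostat in hypoxia. Per2 in BV2 stands at 30.7 and 31.8 CPM with panobinostat and at 5.18 and 5.37 CPM with DMSO in hypoxia.

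Other genes of the clock were read from 3 lists of 21 genes: 8 further genes of the negative limb and output, 4 of the positive limb, and 9 kinases and ubiquitin ligases with their partners. In these monocultures 30.9% of all genes were called higher in BV2, 23.2% in GL261 and 13.3% in BMDM, and 61.9%, 44.6% and 23.9% in either direction. Of the first list, 5 of 7 tested genes rose and 0 fell in BV2 monoculture, 6 of 8 and 0 in GL261, and 2 of 7 with 1 fall in BMDM. Ciart, a repressor of ARNTL-CLOCK, rose by 2.18 in BV2 (SE 0.16, adjusted p = 8.92e-09), 3.22 in GL261 (SE 0.22, adjusted p = 2.35e-06) and 2.28 in BMDM (SE 0.47, adjusted p = 0.00624), the last not called without normoxic replicate 1 (1.93, adjusted p = 0.0782). Nfil3, the D-box repressor that opposes DBP, rose by 1.81, 1.33 and 3.30, the last from 9.64 to 94.9 CPM on average (SE 0.26, adjusted p = 2.38e-05).

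In the positive limb, 2 of 3 tested genes rose in each of the BV2, GL261 and BMDM monocultures, with 0 falling in these comparisons, beside the same shares of all genes (30.9%, 23.2% and 13.3% higher). Rora, a receptor that activates Arntl, was called higher in all 8 hypoxia comparisons; in BMDM with DMSO (2.28, SE 0.25, adjusted p = 0.0425) the call was lost without hypoxic replicate 1 (adjusted p = 0.159) or either normoxic replicate (adjusted p = 0.235 and 0.154). It averaged 2.98 CPM in normoxic and 128 CPM in hypoxic BV2, 42.8-fold more (log2 5.42, SE 0.15, adjusted p = 1.65e-12), and rose by 2.28 in GL261 (SE 0.13, adjusted p = 8.16e-07) and 2.49 in BMDM (SE 0.27, adjusted p = 0.000208). Co-culture raised Rora in normoxic BV2 to 5.9 CPM (log2 0.99, SE 0.17, adjusted p = 0.00191). Npas2, a paralogue of Clock, rose by 2.34 in BV2 (SE 0.24, adjusted p = 3.37e-07), from 1.74 to 8.84 CPM, and by 3.09 in BMDM (SE 0.36, adjusted p = 0.000323), from 1.65 to 14.1 CPM; GL261 had too few counts to test it.

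Among kinases and ligases, 2 of 8 rose and 2 fell in BV2 monoculture, 3 of 8 rose and 0 fell in GL261, and 2 of 9 rose and 2 fell in BMDM; in BV2 the share of this list that rose was below the 30.9% of all genes. Gsk3b, a kinase of several clock proteins, and Fbxw11, a ligase subunit for PER proteins, were each called higher in 7 of the 8 comparisons, Gsk3b by 0.86 in BV2 monoculture (SE 0.11, adjusted p = 3.65e-06). Timeless, which acts at replication forks and has been linked to the clock, fell in BV2 by -0.97 (SE 0.16, adjusted p = 4.93e-05) and in BMDM by -1.52 (SE 0.22, adjusted p = 0.001). With panobinostat in BV2, Ciart rose by 0.99 (SE 0.20, adjusted p = 0.0126) and Timeless fell by 1.30 (SE 0.37, adjusted p = 0.0444). Leaving out either panobinostat library ended both calls (adjusted p 0.0871 to 0.242). Without hypoxic DMSO replicate 2 the Timeless call was also lost (-0.51, adjusted p = 0.318). With the replicate block 4 of 18 tested genes of the 3 lists were called for panobinostat in BV2 against these 2, beside 4025 of 13294 genes. For panobinostat in BMDM the block called 4 of 20 against 0, beside 2044 of 14914 genes. For hypoxia in BMDM with DMSO it called 7 of 20 against 1, beside 2127 of 14914 genes.

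Likeness of pattern was measured over 10 comparisons, the 8 of hypoxia and 2 of panobinostat, as the root mean square difference of log2 fold changes among 5916 genes. The genes nearest to Bhlhe40 were Maff (0.49), Atf3 (0.49) and Tnfaip3 (0.56), a small MAF factor, a stress-induced bZIP factor and a ubiquitin-editing enzyme. The nearest members were Per1 (0.91), Bhlhe41 (1.00) and Arntl (1.11). Nr1d1 had Irf2 (0.53), Rel (0.56) and Myo10 (0.56) nearest, and stood 2.52 from Bhlhe40.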

How the data were processed

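Gene-level read counts of 3 tables (BV2 with GL261, BMDM, and the panobinostat experiment) were used as deposited by the authors, with 1 column per library. Per the labels' protocols, cells were fixed in 3% glyoxal and stranded poly(A) libraries were read as pairs of 151 bases. The submitters' processing notes name the mm10 build, Trimmomatic 0.36, STAR 2.6, HTSeq 0.9.1 and, for BV2 and GL261, Picard 2.17.1; the annotation release and the use of strand are not given in the sources used here. Symbols were found for 55141 of 55487 identifiers. Coordinates come from GENCODE on GRCm38, of which mm10 is a release, and promoter sequences from RefSeq.

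Counts were tested with edgeR 4.0.16 in R 4.3.3 (TMM factors, filterByExpr with minimum count 10 and minimum total 15, quasi-likelihood F test, Benjamini-Hochberg over all genes, threshold 0.05). The groups of a cell type in a table shared 1 fit. Differences between cell types were interaction terms in a joint fit of both cell types with its own TMM factors. The SE is the log2 fold change divided by the square root of F, or, with F near 0, that of the weighted fit. The test was checked on counts simulated from the BV2 mono- and co-culture fit alone, for hypoxia in monoculture. That fit had a common biological coefficient of variation of 0.0958, and the fits with a wider spread were not simulated. Alternatives were DESeq2 1.42.0, its size factors, no filter, a replicate block, leaving out each library, and leaving out genes that the partner expressed 4-fold or more above the cell. Partner shares are medians over partner-specific genes (partner monoculture at 20 CPM or more and 100-fold above the cell's own). No library was identical to another of its group, and libraries of different groups were not compared in this way. Replicate numbers do not pair libraries by the labels. In the panobinostat experiment same-numbered libraries correlated in every pair within a cell type (0.19 to 0.45 in BV2, 0.32 to 0.62 in BMDM; the 2 pairs of a comparison give a single value), so values with the replicate block stand beside the results they change there.

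The members and gene lists were chosen with earlier results of these data known. The rule was to describe all members in every comparison; in the co-culture and panobinostat comparisons members far from the threshold enter the counts only. Of the other lists, the 3 genes with the largest called change in each hypoxia comparison of monocultures or DMSO cultures and in each panobinostat comparison are named. Of these lists 2 genes are not reported here and were left out of the list counts. Per3, Tef and others of those lists enter the counts only, and Gsk3b and Fbxw11 were named after their values were seen.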

Additional observations from a re-analysis of the deposited data

Results flagged for a closer look

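Each result here is a difference between cell types or cultures in the size of a hypoxia effect, tested as an interaction with edgeR and given on the log2 scale; groups of 2 or 3 libraries are too small for a test of single outlying libraries. Between BV2 and GL261 monocultures the members differed by -0.85 for Bhlhe40, -1.64 for Bhlhe41, -0.54 for Cry2, -2.57 for Nr1d1, 1.99 for Dbp, -1.41 for Arntl and -0.78 for Clock, where a negative value is a smaller effect in BV2. For Nr1d1 the libraries of the lines went opposite ways.

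Of the other clock genes, the same test gave 3.24 for Rora (SE 0.18, adjusted p = 2.2e-09), 0.58 for Nfil3 (SE 0.17, adjusted p = 0.0117, lost without any of 4 libraries, adjusted p 0.0543 to 0.101: hypoxic BV2 replicate 2, normoxic BV2 replicate 2 and GL261 hypoxic replicate 1 and normoxic replicate 2; also lost without the filter, 0.51, adjusted p = 0.0719), -0.95 for Ciart (SE 0.27, adjusted p = 0.0102), which was -1.45 without normoxic GL261 replicate 1, and -1.12 for Timeless (SE 0.21, adjusted p = 0.000316). Npas2 had 4.36 (SE 1.43, adjusted p = 0.0231), but GL261 was at or near 0 counts, so this fitted value depends on the prior count, and it was 0.29 (adjusted p = 0.872) without normoxic GL261 replicate 1 and 3.65 (adjusted p = 0.065) without hypoxic GL261 replicate 2. Between BV2 and BMDM with DMSO, Dbp differed by 2.81 and Rora by 2.63 (SE 0.34, adjusted p = 0.0256); the Rora call was lost without BMDM hypoxic or normoxic replicate 1 or any BV2 library (2.30 to 2.89, adjusted p 0.0559 to 0.107). Co-culture lowered the hypoxia effect on Rora in BV2 by a difference of -0.99 (SE 0.20, adjusted p = 0.0232), a call lost without normoxic co-culture replicate 2 (-0.87, adjusted p = 0.14) or either normoxic monoculture replicate (-1.04 and -0.96, adjusted p = 0.0549 and 0.111).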

How the results depend on the processing

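The counts of members called for hypoxia in BV2 and GL261 stayed within 1.5 times under every alternative run. The number of the 10 genes called, where it moved further, was as follows. With DESeq2 it was 5 for hypoxia in BMDM with DMSO (none in the main test) and 2 for the BV2 against BMDM difference (1). Of all genes DESeq2 called 2247 of 14914 and 1167 of 15955 in these. With DESeq2 size factors it was 1 for co-culture in hypoxic BV2 (Nr1d1, against none), beside 2256 of 14432 genes. Without the filter it was 6 for BMDM with DMSO (3259 of 25946 genes). For co-culture in hypoxic GL261 it was 3 against 1, with Nr1d1 and Dbp added (737 of 28809 genes). It was 1 each, against none, for the BV2 interaction of hypoxia and co-culture (Dbp, 981 of 26101 genes), co-culture in normoxic GL261 (Nr1d1, 361 of 28809) and co-culture in hypoxic BMDM (Bhlhe40, 2141 of 26788). With the replicate block it was 4 for BMDM with DMSO (2127 of 14914 genes). For co-culture in hypoxic GL261 it was 3 (Nr1d1 and Dbp beside Bhlhe40, 654 of 15189 genes). It was 1 each for co-culture in hypoxic BV2 (Nr1d1, 2431 of 14432 genes), normoxic GL261 (Nr1d1, 226 of 15189) and hypoxic BMDM (Bhlhe40, 1058 of 14806). Leaving out genes higher in the partner gave 0 for co-culture in hypoxic GL261, since Bhlhe40 is itself such a gene. Leaving out 1 library gave 2 to 3 for hypoxia in BMDM monoculture (4), 1 throughout for panobinostat in BV2 (2), 1 to 2 for co-culture in hypoxic GL261 and 0 to 2 for the BV2 against BMDM difference. In all genes, the block raised the panobinostat calls in BV2 from 1941 to 4025. For the counts of the other clock genes over the 22 comparisons, 6 moved by over 1.5 times with DESeq2, 7 without the filter, 4 with the block and none with the other size factors. The cause of these shifts was not tested.

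Values near 0 changed sign when 1 library was left out. For hypoxia in BMDM monoculture the range was -0.20 to 0.44 for Cry2, -0.11 to 0.30 for Dbp, -0.14 to 0.47 for Nr1d1 and -0.68 to 0.48 for Per2, and in BMDM co-culture -0.25 to 0.23 for Dbp and -0.35 to 0.29 for Per2. For panobinostat in BMDM it was -0.17 to 0.48 for Bhlhe40, -0.19 to 0.30 for Cry1, -0.67 to 0.02 for Dbp and -0.67 to 0.64 for Nr1d1, and in BV2 -0.20 to 0.03 for Clock and -0.04 to 0.23 for Per1. Hypoxia in BV2 co-culture gave -0.31 to 0.07 for Nr1d1. The differences gave -0.27 to 1.09 for Nr1d1 and -0.23 to 0.32 for Cry2 (BV2 against BMDM, hypoxia and panobinostat) and -0.75 to 0.02 for Per2 (BV2 against GL261). Of all gene values, 134 passed in some setting and 45 more were kept; 146 that passed in none, 57 of them with another sign in some setting, are not listed, a scope chosen after the values were seen.

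Same-numbered libraries correlated, in their deviations from group means, by 0.06 on average in BV2 (-0.12 to 0.34), 0.24 in GL261 (0.03 to 0.52) and 0.18 in BMDM (-0.03 to 0.53). In the panobinostat experiment the average was 0.36 in BV2 (0.19 to 0.45) and 0.45 in BMDM (0.32 to 0.62). The labels do not say that numbers pair libraries, and each pair of groups shares only 2 or 3 numbers. The common biological coefficient of variation was 0.381 in BMDM and 0.205 in BV2 of the panobinostat experiment. Per2 and GL261 Bhlhe41 rest on few CPM.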
